A study of Homo sapiens with 6 samples.

Results

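Integrins and laminins are the receptor chains and ligand chains through which cells hold on to the basement membrane. The group described here was a named list of 35 genes, 25 integrin chains and 10 laminin chains, read from microarrays of COLO-320DM cells divided by CD44, a surface receptor for hyaluronan. A probe set, the group of probes that reports a gene on the array, with a single gene symbol was found for 33 of the 35, among 19775 genes in all. ITGB6 shared its 4 probe sets with a second gene and LAMA3 had none in the annotation used, so neither is reported. Where a gene had several, the brightest on average is given.

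COLO-320DM is an established human colorectal cancer cell line known for amplified MYC. The CD44-positive group held 3 arrays of CD44-positive cells and the CD44-negative group 3 arrays of CD44-negative cells, and the labels numbered each group 01, 02 and 03. All 6 came from this 1 line, grown in dishes without treatment, and the labels gave neither how the cells were separated nor whether the replicates were separate cultures. The p-values therefore measure only how far these samples scatter, and that scatter may be technical. Levels are log2 of RMA intensity, and each difference is the CD44-positive mean less the CD44-negative mean on that log2 scale.

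An integrin is a pair of an alpha and a beta chain that spans the membrane, binds matrix outside and couples to actin inside through talin and kindlin. A laminin is a trimer of an alpha, a beta and a gamma chain, and laminin networks form the sheet under epithelia, including that of the colon crypt. In this tissue the integrins of ITGA6 with ITGB1 or ITGB4 are known as laminin receptors, those of ITGA1 and ITGA2 with ITGB1 as collagen receptors, and those of ITGAV as receptors for the RGD motif of fibronectin and similar ligands.

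No integrin or laminin chain passed the test between CD44-positive and CD44-negative cells. Of the 33 genes 24 had a mean above the dim limit, the 30th percentile of all genes at 5.12, and were tested. None of the 24 passed limma's test at an adjusted p of 0.05 over the 13842 genes tested, without the replicate block (background 0%) or with it (background 0.0578%, 8 genes). The block treats same-numbered arrays as pairs. At an unadjusted p under 0.05 there were 0 of 24 without the block (background 1.97%, or 1.24% higher and 0.730% lower). With the block there was 1 of 24, ITGA9, which was higher (background 7.49%, or 4.24% higher and 3.25% lower). The groups overlapped in each of the 24 (background of genes without overlap 5.43%). The median difference was 0.013, against -0.0025 over all genes tested. On average 12 of the 24 were higher in CD44-positive cells, where 48.9% of all genes tested were.

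The intervals bound how large a difference in array signal could have been missed. RMA compresses differences near background, so for faint genes they need not bound a difference in RNA. The endothelial gene PECAM1 averaged 6.24. Of the tested genes ITGA2B, ITGA7, ITGA8, ITGA9, ITGA10, ITGA11, ITGAM, ITGB2, ITGB3, ITGB4, ITGB7, LAMA4 and LAMC3 averaged less. Differences ran from -0.14 for ITGAM to 0.21 for ITGA9, and all 24 of the 95% confidence intervals lay within a 2-fold change, as did 98.7% of those over all genes tested. For 22 of the 24 the interval also lay within a 1.5-fold change (93.2% over all genes), and the exceptions were ITGA2 and ITGA9. The median SE was 0.10, and 0.076 with the replicate block. In a bulk sample of RNA, fewer cells of a kind and less RNA per cell cannot be told apart, and a protein at the cell surface was not measured.

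**Figure D1:**
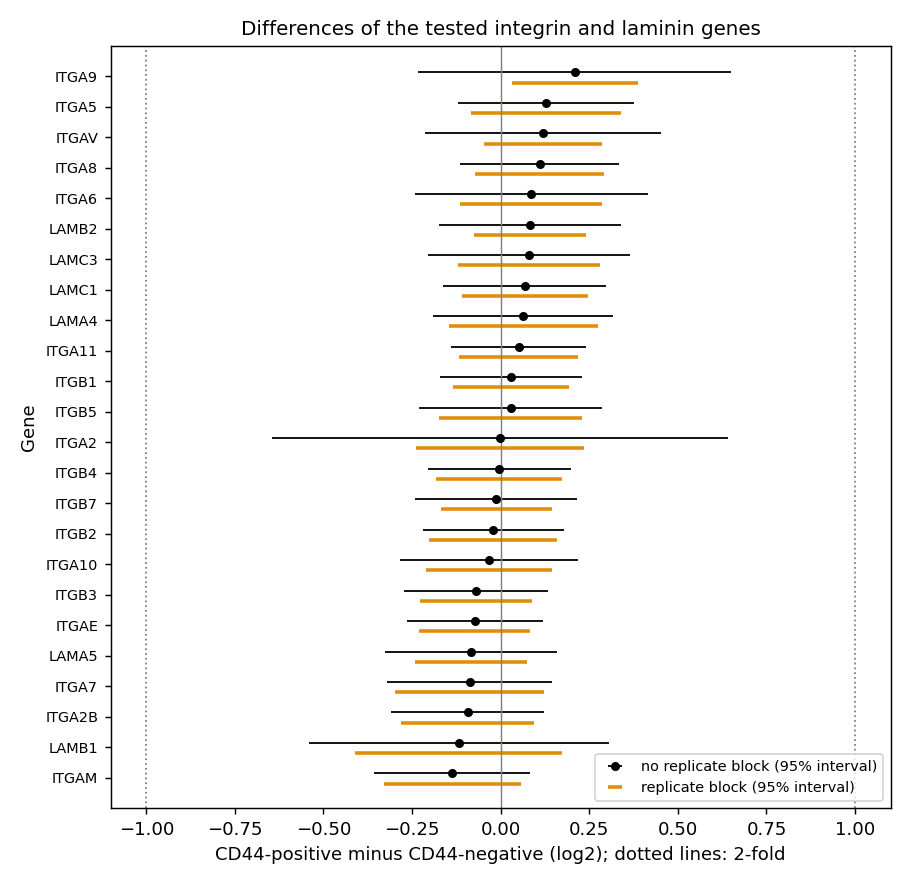
Difference of each of the 24 tested genes (CD44-positive minus CD44-negative, log2, x axis) with its 95% confidence interval from limma without the replicate block (black) and with it (orange), 3 arrays a group; dotted lines mark a 2-fold change. All black intervals include 0, none reaches a dotted line, and the orange interval of ITGA9 alone, from 0.03 to 0.39, leaves out 0.

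CD44 itself separated the arrays. It stood at 7.86, 8.12 and 7.11 in the CD44-positive and at 5.41, 5.29 and 4.99 in the CD44-negative arrays, a 5.54-fold difference (limma, adjusted p = 0.106, with the replicate block 0.00176). Median intensities of the arrays lay between 44.9 and 46.5. Of 11 epithelial markers 8 were above the dim limit, among them KRT18 and CDX2, while EPCAM, CDH1 and KRT19 were under it. CLDN3, CLDN4, CLDN7 and VIL1, at means of 5.38, 5.60, 5.13 and 5.90, lay above the limit but under PECAM1 (6.24). Of the 8 tested, 4 were higher and 4 lower. KRT20 read 6.67, 7.23 and 7.02 against 6.33, 6.10 and 6.60. These groups did not overlap, with a difference of 0.63 (limma, block adjusted p = 0.298). EPCAM, which was not tested, differed by -0.47, also without overlap. Of the neuroendocrine markers 3 of 7 were above the limit, and CHGA was under it at 3.57. All 3 were higher in the CD44-positive array of each pair, with mean differences of 0.080 to 0.49. With the block 2 had an unadjusted p under 0.05 (background 7.49%), and none passed (smallest block adjusted p = 0.272). Among them SYP, at 5.56 and 5.39 in the group means, lay under PECAM1. The dim limit is a percentile and not a detection call. The T cell gene CD3E, at 6.11, and the endothelial gene PECAM1, at 6.24, lay above it, so a chain at such a level is reported as measured and not as expressed.

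Among the chains of laminin receptors, ITGA6, ITGB1 and ITGB4 overlapped between the groups. ITGB1, the common partner of most alpha chains, stood at 11.63, 11.59 and 11.70 in the CD44-positive and at 11.52, 11.63 and 11.68 in the CD44-negative arrays. The 6 values spanned little and the groups were interleaved, with a difference of 0.03 (95% interval -0.17 to 0.23, adjusted p = 1.00). ITGB1 was also read by probe sets with means of 9.89 and 9.80, which differed by -0.035 and -0.082.

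ITGA6, the main laminin-binding alpha chain of gut epithelium, measured 8.26, 7.78 and 7.85 in CD44-positive and 7.99, 7.72 and 7.93 in CD44-negative cells. Only the CD44-positive array 01 stood above the range of the other group. The difference was 0.09 (-0.24 to 0.42), and it was -0.062 without CD44-positive array 01. Its other probe set gave 0.18 with an unadjusted p of 0.0499 and an adjusted p of 0.648 with the block, and its lowest values were those of number 03, at 6.90 and 6.81.

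ITGB4, which joins ITGA6 in hemidesmosomes, read 6.11, 6.04 and 6.12 against 6.13, 6.16 and 5.99. These values lay at the level of CD3E and PECAM1, and the groups overlapped throughout, with means of 6.09 ± 0.04 and 6.09 ± 0.09 (SD, n = 3). ITGA7, a laminin receptor chain best known from muscle, read 5.82, 6.06 and 5.87 against 5.98, 5.92 and 6.11. These groups overlapped as well, with a difference of -0.09 (-0.32 to 0.15). ITGA3, which also pairs with ITGB1, was dim at 4.54 to 5.03 and was not tested.

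Of the collagen receptor chains ITGA2 was bright and ITGA1 dim. These genes lie on the same strand of chromosome 5, with annotated starts 201436 bases apart. The ITGA2 probe set read 9.83, 8.95 and 9.71 in CD44-positive and 9.55, 9.02 and 9.93 in CD44-negative cells, and its second probe set averaged 7.85. All 3 probe sets of ITGA1 were dim, the brightest at 4.12 to 4.48 over the 6 arrays. Probe sets bind with different strength, so the levels of the genes are not compared further. The promoter windows of this pair, from 250 bases before to 50 after the start (RefSeq, GRCh38.p14, both on the plus strand, 5′ to 3′), are printed because one gene was bright and the other dim. Capitals mark GC boxes (GGGCGG on either strand), a binding sequence of Sp1.
ITGA1 at chr5:52787666-52787965: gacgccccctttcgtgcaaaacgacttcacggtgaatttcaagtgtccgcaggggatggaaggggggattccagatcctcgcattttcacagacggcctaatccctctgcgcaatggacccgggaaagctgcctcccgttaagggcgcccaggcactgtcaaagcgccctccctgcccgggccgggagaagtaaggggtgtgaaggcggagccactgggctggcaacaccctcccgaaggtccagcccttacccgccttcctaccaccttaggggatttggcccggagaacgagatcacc
ITGA2 at chr5:52989102-52989401: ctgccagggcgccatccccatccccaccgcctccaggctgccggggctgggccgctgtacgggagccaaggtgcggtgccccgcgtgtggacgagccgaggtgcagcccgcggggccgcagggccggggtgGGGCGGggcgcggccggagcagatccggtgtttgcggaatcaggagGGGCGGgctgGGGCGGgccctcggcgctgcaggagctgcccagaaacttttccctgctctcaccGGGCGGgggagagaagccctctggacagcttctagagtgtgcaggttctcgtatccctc
The ITGA2 window held 4 GC boxes and the ITGA1 window 0. Their GC content was 72.7% and 61.7%. A GC box was found in 45.0% of 35116 promoter windows of this length, and neither window held TATAAA (11.5% of windows) or the AP-1 sequence TGANTCA (7.71%), both strands searched. Windows were at hand for 23 of the 33 genes. A GC box was present in at least 1 window of 11 of 18 of them above the dim limit and of 2 of 5 dim ones, some genes having several windows. Counted by window, as the 45.0% is, it was 18 of 30. The windows of the bright ITGAE and ITGAV held none. The median GC content was 60.5% above the limit and 61.7% under it. A match is a description of the letters and not a site of binding.

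In both groups 2 ITGA2 values were high and the one of number 02 was low. The ITGA2 difference was -0.0013 (95% interval -0.65 to 0.64), the widest interval of the 24. With the replicate block the interval was -0.24 to 0.24. ITGA10 and ITGA11, collagen receptor chains of cartilage and mesenchyme, lay near the dim limit and differed by -0.03 and 0.05. A second probe set of ITGA11 had separate groups, at 5.25 to 5.36 against 5.12 to 5.22, with an unadjusted p of 0.158 and an adjusted p of 1.00.

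The RGD receptors did not pass either. ITGAV, which pairs with several beta chains, read 10.49, 10.13 and 10.34 in CD44-positive and 10.36, 9.93 and 10.31 in CD44-negative cells. Each CD44-positive array exceeded its same-numbered partner, by 0.13, 0.20 and 0.03, but the groups overlapped. The difference was 0.12 (-0.21 to 0.45), and without CD44-negative array 02 it was -0.016.

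ITGA5, the fibronectin receptor chain, measured 7.04, 7.33 and 7.26 against 7.15, 7.14 and 6.97. Arrays 02 and 03 of the CD44-positive group stood above the other group and array 01 within it, with a difference of 0.13 (-0.12 to 0.38). ITGA8, the nephronectin receptor chain, read 5.88, 5.83 and 6.04 against 5.91, 5.72 and 5.80, a difference of 0.11 (-0.12 to 0.33), on a probe set marked for cross-hybridisation, while its other 3 were dim. ITGA2B, the platelet chain, read 6.15, 6.04 and 6.21 against 6.12, 6.29 and 6.27. It differed by -0.09 (-0.31 to 0.12).

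None of the remaining beta chains passed. ITGB5, a partner of ITGAV, differed by 0.03 (-0.23 to 0.29), but its probe sets disagreed. One with a mean of 6.88, marked for cross-hybridisation, differed by -0.24, with an unadjusted p of 0.0103 and an adjusted p of 0.459 with the block. Another ITGB5 probe set, at a mean of 5.66, differed by -0.015. ITGB3, the platelet and endothelial partner of ITGAV and ITGA2B, read 5.76, 5.82 and 5.73 against 5.83, 5.94 and 5.75, a difference of -0.07 (-0.27 to 0.13). Another of its probe sets kept the groups apart, at 5.41 to 5.43 against 5.46 to 5.53. It differed by -0.06, with an unadjusted p of 0.481 in limma without the block and of 0.409 with it. One more ITGB3 probe set differed by 0.07. All 5 probe sets of ITGB8 were dim, the brightest at 3.52 to 3.94. ITGB2 and ITGB7, known from leukocytes, differed by -0.02 and -0.01. The ITGB2 value came from a probe set marked for cross-hybridisation, and the other ITGB2 probe sets were dim. One of the dim ones had separate groups, at 4.61 to 4.80 against 4.87 to 4.96, a difference of -0.23 that was not tested.

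Chains best known from leukocytes gave one bright signal. ITGAE, which pairs with ITGB7 to bind E-cadherin, read 10.44, 10.45 and 10.54 in CD44-positive and 10.49, 10.56 and 10.60 in CD44-negative cells. Each CD44-positive array lay below its partner, by 0.05 to 0.11, with a difference of -0.07 (-0.27 to 0.12). Its ligand E-cadherin (CDH1) was dim, at 4.07 and 4.17. ITGAM read 5.60, 5.69 and 5.72 against 5.84, 5.91 and 5.67. The difference of -0.14 (-0.36 to 0.08) had the smallest unadjusted p of the 24, 0.191. ITGAL, with a mean of 5.07 just under the dim limit, and ITGAX, at 4.64 to 4.82, were not tested. Of the leukocyte markers, PTPRC (CD45) read 7.13 and 7.21 in the group means, while CD14, LYZ and MS4A1 were dim. Beside this, the mean level of 6 leukocyte markers was 5.08 to 5.20 in CD44-positive and 5.11 to 5.24 in CD44-negative arrays, and the part of such cells was not tested.

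ITGA9, which with ITGB1 binds tenascin-C, had the largest difference of the 24. It read 5.23, 5.20 and 5.77 in CD44-positive and 4.94, 5.13 and 5.50 in CD44-negative cells. With a mean of 5.29 this probe set lay near the dim limit and under CD3E (6.11) and PECAM1 (6.24). CD44-negative array 01 lay under the limit, so ITGA9 is reported as measured and not as expressed. Within each number the CD44-positive array was higher, by 0.29, 0.07 and 0.27, while the groups overlapped. The difference of 0.21 ± 0.19 (SE) had an unadjusted p of 0.306, and with the block 0.0266 (adjusted p = 0.581), so the gene did not pass, and without CD44-positive array 03 the difference was 0.023. A second probe set, just under the dim limit at a mean of 5.03, read 5.56, 5.76 and 4.61 against 4.79, 4.57 and 4.91. There CD44-positive arrays 01 and 02 were high and array 03 was not, a pattern unlike that of the first probe set. ITGA4, the related alpha chain of leukocytes, was dim on all 4 of its probe sets, the brightest at 2.65 to 3.03.

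**Figure D2:**
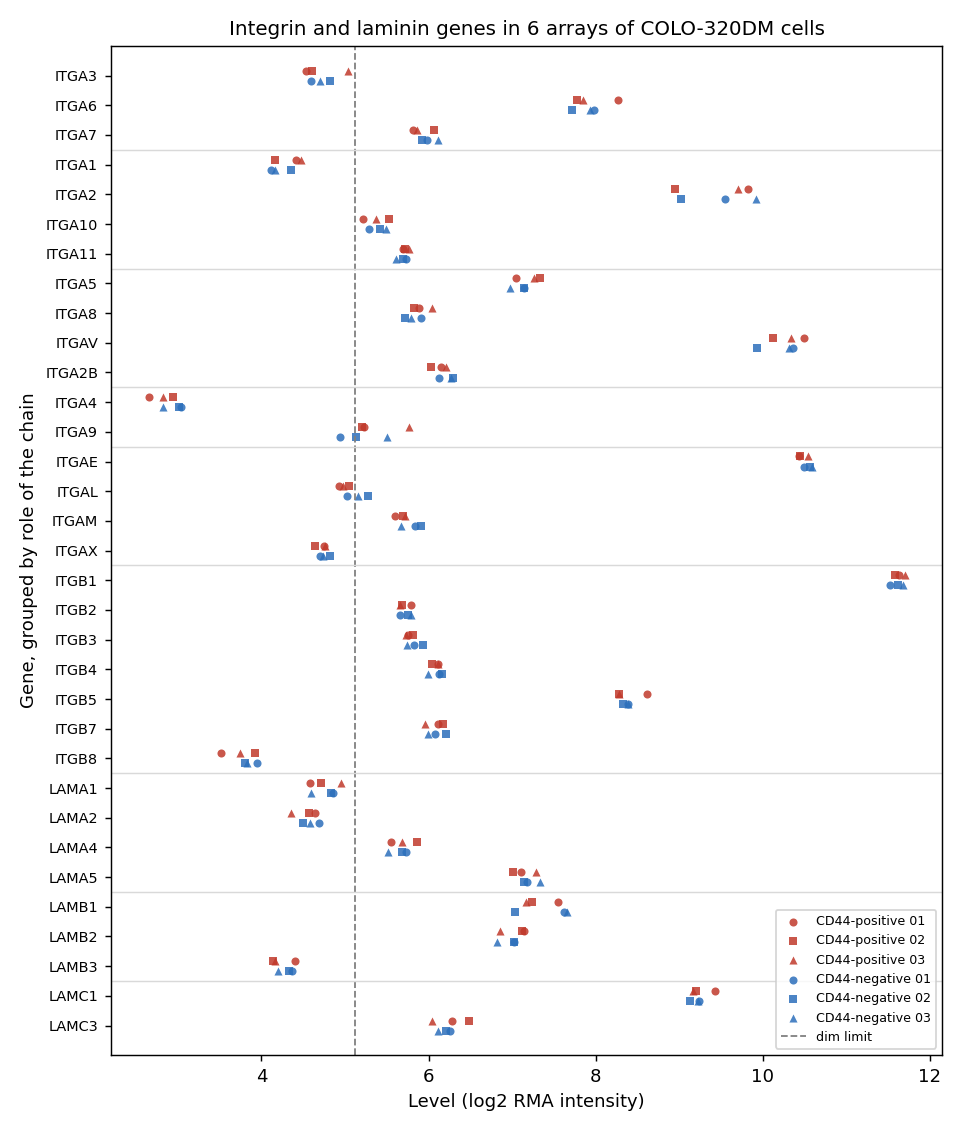
Level of each of the 33 genes (log2 RMA intensity, x axis) in the 6 arrays, grouped by the role of the chain; red marks CD44-positive and blue CD44-negative arrays, the symbol gives the replicate number and the dashed line the dim limit of 5.12. The red and blue points overlap in all 24 genes with a mean above the limit.

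The laminin chains above the dim limit were LAMA4, LAMA5, LAMB1, LAMB2, LAMC1 and LAMC3, 6 of 9 measured, with differences from -0.12 to 0.08. LAMC1, the gamma chain of most laminins, read 9.43, 9.20 and 9.17 in CD44-positive and 9.24, 9.13 and 9.23 in CD44-negative cells. CD44-positive array 01 was the one high value, and the difference was 0.07 (-0.16 to 0.30). Its second probe set, at a mean of 8.11, differed by -0.12, so the direction was not shared.

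LAMB1, the beta chain of most epithelial laminins, measured 7.55, 7.24 and 7.17 against 7.62, 7.03 and 7.66. All 3 CD44-positive values lay inside the range of the CD44-negative arrays, whose low value was that of number 02. The difference was -0.12 (-0.54 to 0.30), and without pair 03 it was 0.068. LAMB2, which can take its place, differed by 0.08 (-0.17 to 0.34).

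LAMA5, the alpha chain of the adult gut basement membrane, read 7.11, 7.01 and 7.28 against 7.18, 7.14 and 7.33. Each CD44-positive array lay below its partner, by 0.05 to 0.13, but the groups overlapped, and the difference was -0.08 (-0.33 to 0.16). LAMA4, known from vessels, and LAMC3 differed by 0.06 and 0.08. LAMA1, LAMA2 and LAMB3 were dim, with levels from 4.14 to 4.95 over the 3 genes and 6 arrays.

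Pairing the chains by textbook heterodimers, 22 of 23 known pairs had both chains measured, and in 15 of these both were above the dim limit. Of all 19775 genes 13842 were above that limit, so the count does not show that a chain was expressed. ITGA2B, ITGA7, ITGA8, ITGA9, ITGA10, ITGA11, ITGAM, ITGB2, ITGB3, ITGB4 and ITGB7, at means of 5.29 to 6.18, lay under the level of PECAM1 (6.24). Both chains lay above PECAM1 only for ITGA2, ITGA5, ITGA6 and ITGAV with ITGB1, and for ITGAV with ITGB5. ITGB1 accounted for 9 of the 15, since of its 12 alpha partners only ITGA1, ITGA3 and ITGA4 were dim. ITGAV was above the limit with ITGB1, ITGB3 and ITGB5 and lacked only ITGB8 among its measured partners. For a laminin trimer, at least 1 alpha, 1 beta and 1 gamma chain were above the limit. Whether the chains were made or assembled was not measured.

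The same sign in 3 of 3 same-numbered pairs was found in 6 of the 24 genes, 25.0%, against 28.5% over all genes tested. ITGAV, ITGA9 and LAMB2 were higher in each pair, and ITGAE, ITGB3 and LAMA5 lower. Over the 91 probe sets of the 33 genes, 38 were above the dim limit, and none of the 38 passed when every probe set was tested, without the block (background 0.0115%) or with it (background 0.107%). At an unadjusted p under 0.05 these counts were 0 (background 1.85%) and 3 (background 7.72%).

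Levels also varied with the replicate number. In 21 of the 24 genes the means of the same-numbered pairs spanned more than the difference between the groups, 87.5% against 88.6% over all genes tested. The term for the replicate number, tested with limma in the blocked fit after the values had been seen, passed for 2 of the 24 genes, 8.33%, against a background of 10.3% (1430 genes). The labels do not say what arrays of a number share.

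ITGA2 was the clearer case (adjusted p = 0.0184). Arrays 02 read 8.95 and 9.02, and the other 4 read 9.55 to 9.93, so that both low values belonged to number 02. The second probe set had its lowest values there too, 7.477 and 7.505, and with every probe set tested the adjusted p was 0.0160 and 0.0252 (background 12.6%). Without number 02 the term gave an adjusted p of 0.598.

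ITGA9 passed as well (adjusted p = 0.0242), with the arrays of number 03 at 5.77 and 5.50 and the others at 4.94 to 5.23. This rested on number 03, since without it the adjusted p was 0.657, and the second ITGA9 probe set did not share it. ITGAV, lowest in number 02 in both groups, missed the threshold at 0.0515, with a range of 0.00425 to 0.647 over 10 alternatives. ITGA6 depended on the probe set. The brighter one had its lowest pair mean in number 02 and did not pass (adjusted p = 0.105), while the other was lowest in number 03 and passed when every probe set was tested (adjusted p = 0.0149). LAMB1 did not pass (adjusted p = 0.160). No single number was low throughout the family. Number 01 gave the lowest pair mean in 7 of the 24 genes (29.2%, against 25.1% over all genes tested), number 02 in 9 (37.5% against 31.8%) and number 03 in 8 (33.3% against 43.1%).

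**Figure D3:**
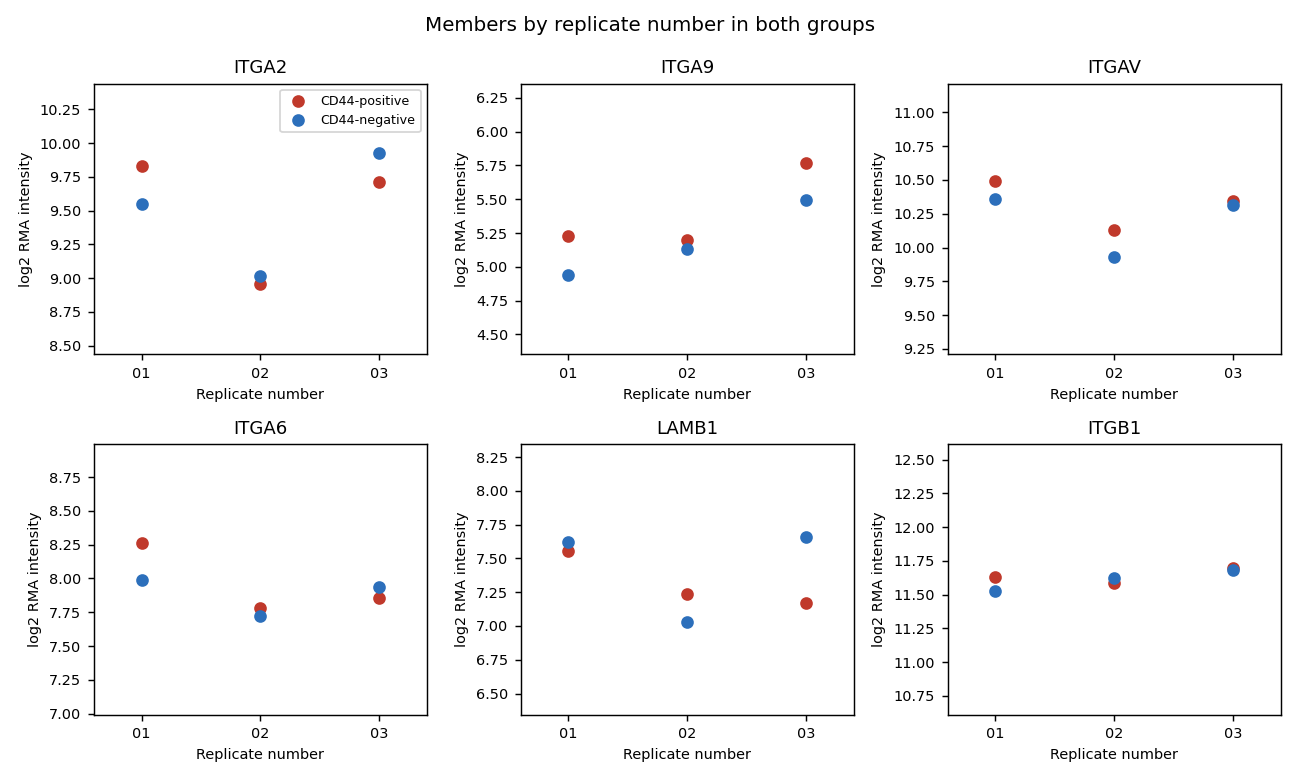
Level (log2 RMA intensity, y axis, a span of 2 in each panel) of 6 genes by replicate number, with CD44-positive arrays in red and CD44-negative arrays in blue. ITGA2 is low in number 02 in both groups, at 8.95 and 9.02, ITGA9 is high in number 03, and ITGB1 stays between 11.52 and 11.70.

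The proteins that couple integrins to the cell interior gave small differences. Of 36 listed adaptors and signalling partners 32 had a probe set and 29 were tested, 17 higher and 12 lower, with a median of 0.023 (-0.0025 over all genes). None passed over all genes, with or without the block, and 3 had an unadjusted p under 0.05 with the block (background 7.49%). FERMT2 (kindlin-2), which binds integrin beta tails, read 9.27, 9.41 and 9.23 in CD44-positive and 8.99 to 9.03 in CD44-negative cells. The groups were apart, and the difference of 0.29 ± 0.09 (SE), 1.23-fold, had an adjusted p of 1.00, and of 0.310 with the block. VCL (vinculin) was also without overlap, at 9.70 to 9.85 against 9.59 to 9.67, a difference of 0.18 (block adjusted p = 0.615). TLN1 (talin-1), which activates integrins, differed by -0.29 (block adjusted p = 0.384) and RSU1, a partner of the ILK complex, by -0.16.

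Genes of the basement membrane around laminins were tested in 10 of 17 cases, 14 having a probe set. On average 7 were higher and 3 lower, with a median of 0.13 (over all genes 48.9% were higher and the median was -0.0025). None passed with or without the block (background 0.0578% and 0%). At an unadjusted p under 0.05 there were 0 without the block and 3 with it, AGRN, DST and SDC1, all higher (background 7.49%, or 4.24% higher). AGRN (agrin), a laminin-binding proteoglycan, read 6.54, 6.45 and 6.61 against 6.39, 6.28 and 6.43, apart by a narrow gap, a difference of 0.17 (block adjusted p = 0.624) that was -0.15 on another probe set. DST, which links ITGB4 to keratin, differed by 0.26 and SDC1 (syndecan-1), a matrix receptor, by 0.31 (block adjusted p = 0.429 and 0.601). The DST value came from a probe set marked for cross-hybridisation, and went down to 0.084 among the alternatives that left out no array. COL4A1, a collagen of the basement membrane, differed by -0.14.

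The other ligands of integrins held the one gene past the threshold. Of 24 listed, 23 had a probe set and 18 were tested, 13 higher and 5 lower, with a median of 0.072. Without the block 0 passed and 5 had an unadjusted p under 0.05 (background 1.97%). With the block 1 passed and 7 had an unadjusted p under 0.05 (background 7.49%). The one was TNC (tenascin-C), a ligand of ITGA9 and ITGAV integrins, at 7.47, 8.42 and 6.72 in CD44-positive and 5.16, 6.99 and 4.98 in CD44-negative cells.

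TNC was higher in each pair, by 2.31, 1.42 and 1.75, although CD44-negative array 02 exceeded CD44-positive array 03. The difference of 1.83, 3.55-fold, had an adjusted p of 1.00 without and of 0.0193 with the block, and 2 of the CD44-negative values lay near the dim limit. Beside it, the receptor chains ITGA9, near the dim limit, and ITGAV differed by 0.21 and 0.12 and did not pass.

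FN1 (fibronectin), the ligand of ITGA5, went the other way at 6.70, 6.54 and 6.66 against 6.92, 6.92 and 6.97. The groups did not overlap, and the difference of the means was -0.31 (block adjusted p = 0.292). TGFB1, whose latent form ITGAV integrins bind, read 7.08, 6.72 and 6.60 against 6.50, 6.36 and 6.06. It was higher in each CD44-positive array, by 0.49 on average (block adjusted p = 0.104), and its other probe set gave 0.13. COL1A2 read 5.36, 5.35 and 5.50 against 5.03, 5.04 and 5.20, a difference of 0.31 (block adjusted p = 0.243) near the dim limit.

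COL3A1, NPNT, COL1A1 and LUM were named after their values had been seen. COL3A1 read 11.63, 10.02 and 11.60 against 10.61, 9.45 and 10.85, with pair differences of 1.02, 0.57 and 0.75. Limma gave an unadjusted p of 0.150 without the block and an adjusted p of 0.0526 with it. The low values of COL3A1 were in number 02, as in ITGA2. NPNT (nephronectin), the ligand of ITGA8, read 9.55, 9.20 and 9.21 against 8.72, 7.91 and 9.14, without overlap, and its pairs differed by 0.82, 1.29 and 0.07 (block adjusted p = 0.384). Fibroblast markers, which share the 3 collagens of this list, had a mean level of 5.67 to 5.999 in CD44-positive and 5.54 to 5.57 in CD44-negative arrays over 10 genes. Within that list COL1A1 read 7.76, 7.73 and 7.45 against 7.95, 7.85 and 7.85, a difference of -0.23 without overlap (unadjusted p = 0.0605, block adjusted p = 0.531). PDGFRB, DCN and THY1 differed by -0.13, -0.04 and 0.05, and POSTN, FAP and PDGFRA were dim. LUM (lumican) was dim on average but read 5.63, 4.18 and 3.84 against 2.36, 2.79 and 2.44, without overlap. The part of such cells in these values was not tested.

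**Figure D4:**
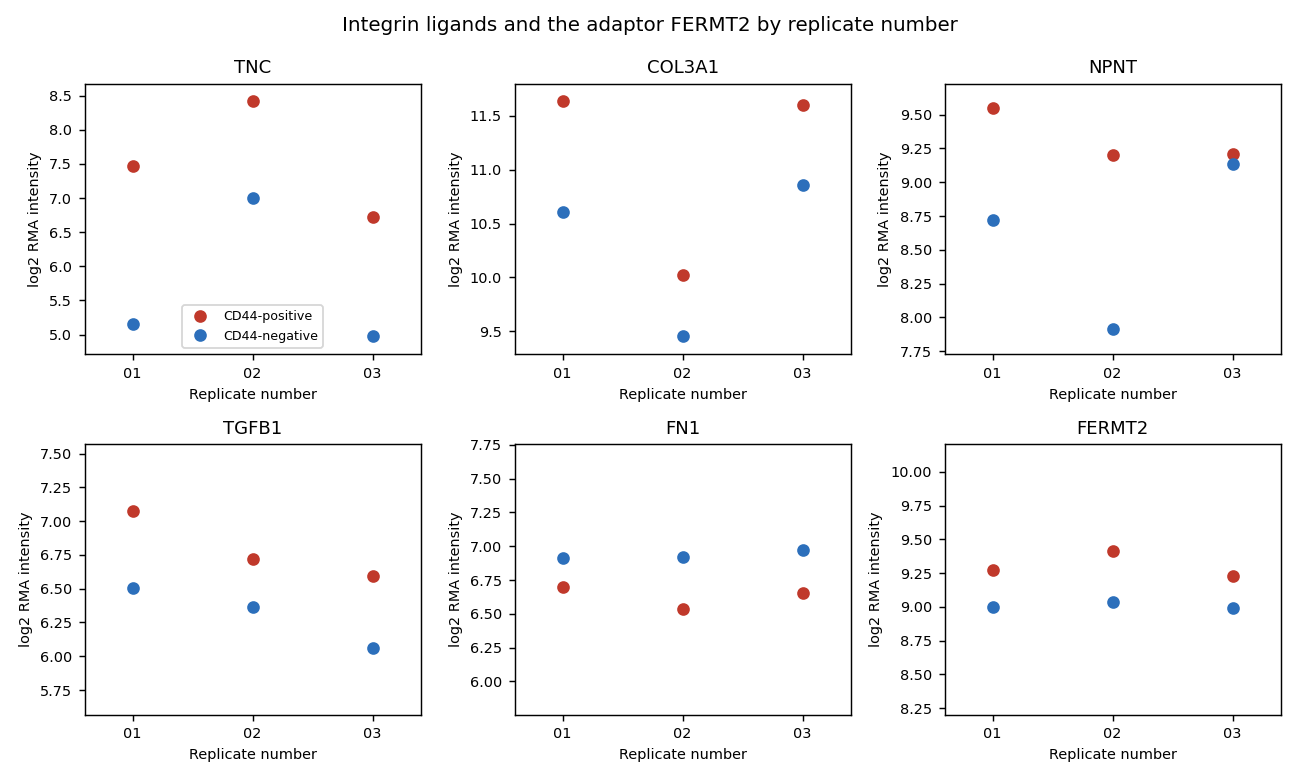
Level (log2 RMA intensity, y axis, whose range differs between panels) of 5 integrin ligands and the adaptor FERMT2 by replicate number, CD44-positive arrays in red and CD44-negative in blue. In each number the red point is above the blue one, except for FN1, where it is below; TNC and COL3A1 overlap between the groups.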

How the data were processed

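Per the labels, biotin-labelled RNA of 6 samples, 3 CD44-positive and 3 CD44-negative, was hybridised to Affymetrix arrays. The deposited table held RMA intensity values on a linear scale, per the submitters' processing notes and the values, and log2 was taken without a pseudocount. An RMA version is not given in the sources used here, and neither is a build. RMA makes array distributions alike and compresses differences near background.

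Of 54675 probe sets 62 were controls and left out. The platform annotation named 1 gene for 41091 and several for 1801, and 11721 had none. Of the 41091, 41037 had a gene ID found in RefSeq and took the RefSeq name, whether or not it differed, and 54 kept the annotation's name. Genes under the 30th percentile of the mean were not tested. The 6 arrays limit the precision of every value.

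Limma 3.58.1 (R 4.3.3) compared the groups, two-sided, with Benjamini-Hochberg adjustment over 13842 genes and a threshold of 0.05. The method was tested on simulated data first. Without the block it found 7.46% of log2 changes of 0.5, 80.6% of those of 1 and 100% of those of 2, with 0 false calls. With the block it found 77.6%, 97.0% and 100%, with 8 false calls. A permutation test of 3 arrays against 3 cannot go below p = 0.1. Arrays of one number deviated together (correlation over genes 0.465, 0.689 and 0.626), so numbers were treated as pairs, a reading from these data and not from the labels. The fit with that replicate block is printed beside the main one, but for several genes of the further lists only its adjusted p is given. Without the block 0 of the 13842 genes passed.

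The genes and lists were chosen with earlier results of these data known. Values in every array were given for genes past the threshold, the 10 of the 24 with the smallest unadjusted p, and ITGB1, ITGA6, ITGB4, ITGA3, ITGAV, LAMA5, LAMB1 and LAMC1, with dim genes, ITGA3 among them, given by their range. In each further list, genes past the threshold and the 4 with the smallest p were named. COL3A1, NPNT, COL1A1, LUM, SYP and several epithelial markers were named, and ITGA2 given in every array, after their values had been seen, as were second probe sets. Alternatives changed the normalization, the dim filter, the probe sets, the variance model, the block and the arrays used. Tests of every probe set and of the replicate number were added after seeing the data. Figures used matplotlib 3.10.9.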

Additional observations from a re-analysis of the deposited data

How the results depend on the processing

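No integrin or laminin gene passed under any of the 20 alternatives run, without or with the replicate block, and the median difference stayed between -0.021 and 0.033. The members past the threshold in the 3 further lists numbered 1 with the replicate block, with the block and quantile normalization and with the block and no dim filter, and 1 to 4 with the block when a pair was left out. Without the block and 1 array it was 0. Over all genes the count was 0 as planned and 8 with the replicate block, 4 with the block and quantile normalization, 5 with the block and no dim filter and 6 when probe sets were averaged under the block. With the block, leaving out pair 01 gave 10, pair 02 gave 63 and pair 03 gave 127. Without the block it was 2 with no dim filter, 1 without _s_at and _x_at probe sets, and 0 to 1 when an array was left out. Signs turned, none past the threshold, in ITGB1 with the mean of probe sets (-0.017, also with the block) and without _s_at and _x_at probe sets (-0.035), in LAMC1 with the mean of probe sets (-0.028, also with the block), and without those suffixes in ITGB4 (0.087) and AGRN (-0.15). Leaving out 1 CD44-positive array gave ITGB1 -0.0015 to 0.055, ITGA6 -0.062 to 0.18, ITGB4 -0.018 to 0.019 and LAMC1 -0.013 to 0.12. Leaving out 1 CD44-negative array gave ITGB1 -0.015 to 0.064, ITGB4 -0.055 to 0.029 and ITGAV -0.016 to 0.20. Leaving out a pair under the block gave ITGB1 -0.011 to 0.063, ITGA6 -0.0089 to 0.17, ITGB4 0.0052, 0.052 and -0.070, and LAMB1 -0.28 to 0.068. Over all of these ITGAV reached 0.22. The cause of these turns was not tested. TNC had a result under 18 of the 20 alternatives. It passed under 6 of them, each with the block (adjusted p from 3.60e-06 to 0.0281), and not under the other 12. The levels of CD3E and PECAM1 mark where signal near background limits a chain.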
